A study of Monodelphis domestica with 18 samples.

Results

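The subunits of the hypoxia-inducible factors (HIF) and the enzymes that sense oxygen for them were followed across 18 RNA-seq libraries of opossum kidney (OK) cells, an established epithelial line used as a model of the kidney proximal tubule. The members were the genes named HIF1A, EPAS1, ARNT, VHL, EGLN1, EGLN2, EGLN3 and HIF1AN. They were taken by name, with earlier results of these data known. Of these 8 names, 6 were found among the 23899 genes with deposited counts: HIF1A (ENSMODG00000008760), EPAS1 (ENSMODG00000000953), ARNT (ENSMODG00000018814), EGLN1 (ENSMODG00000008825), EGLN3 (ENSMODG00000017625, named after its human counterpart) and HIF1AN (ENSMODG00000019355). VHL and EGLN2 were not analysed here. All 6 genes found had more than 1 CPM (counts scaled to a common library total) in at least 6 libraries and so entered the tests, which covered 12840 genes.

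The libraries came from wild type OK cells on permeable supports, some moved onto a shaker turning at 146 rpm on the day after plating (0 h) and the rest left still. Orbital shear stress (OSS) was sampled at 12, 48 and 96 h and static culture at 0, 48 and 96 h, with 3 libraries per condition. The same wild type line and medium served all groups, and each library pooled the RNA of 3 experiments, so p-values measure the spread between pools. No static library of 12 h was taken, so in the comparison of OSS 12 h with Static 0 h the effect of OSS and that of 12 more hours in culture cannot be told apart.

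HIF is a pair of an alpha subunit (HIF-1 alpha from HIF1A, or HIF-2 alpha from EPAS1) and the beta subunit ARNT, and it switches on genes for glycolysis, vessel growth and pH control when oxygen is scarce. In oxygenated cells the prolyl hydroxylases made by EGLN1, EGLN2 and EGLN3 mark the alpha subunits, the VHL ubiquitin ligase then has them destroyed, and the asparagine hydroxylase made by HIF1AN (also called FIH) blocks their contact with coactivators. Because this control acts on protein, transcript levels do not give HIF activity, while EGLN1 and EGLN3 are themselves known HIF target genes in human cells. In the mammalian kidney, tubule cells are known mainly for HIF-1 alpha and interstitial and endothelial cells for HIF-2 alpha.

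Library totals ran from 40154553 to 79745362 counts, and the lowest count of any member in any library was 303 (EGLN3). LRP2 (megalin) lay at 2785 to 6899 CPM and CUBN (cubilin) at 1072 to 2485 CPM over the libraries, while the proximal tubule water channel gene AQP1 stayed at or below 0.242 CPM and was at 0 in 4 libraries. Of 12 proximal tubule markers 11 were found and 9 tested. The summed level of those found, mostly LRP2 and CUBN, was 9151 to 11373 CPM in OSS 96 h and 6311 to 6941 CPM in Static 96 h. Among the 9 tested, SLC9A3 alone had a lower mean in OSS 96 h (73.0 CPM, against 111 CPM in Static 96 h). ALPL, found but not tested, stayed at or below 1.12 CPM. Markers of other cells were not uniform. PTPRC (leukocytes) reached 0.772 CPM, COL3A1 (fibroblasts) was at 0 in 12 libraries and CDH5 (endothelium) was at 0 in 11. PECAM1 and VWF (endothelium) reached 3.21 and 2.67 CPM, and CD68 (immune cells) lay at 4.23 to 10.1 CPM. Other markers of these cells were present in every library, with the fibroblast genes PDGFRB at 14.9 to 108 CPM and COL1A2 at 21.4 to 53.9 CPM. Some of their sums still moved with the groups, at 37.7 to 44.1 CPM in OSS 96 h and 80.5 to 84.4 CPM in Static 96 h for the 5 fibroblast markers, 143 to 212 and 304 to 349.5 CPM for the 3 immune markers, mostly CD14, and 26.3 to 39.3 and 3.83 to 6.10 CPM for the collecting duct and loop markers, mostly SLC12A1. The part of these markers in the results was not tested, and in such bulk libraries fewer cells of a type and less RNA per cell cannot be told apart.

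Under OSS, transcripts of both prolyl hydroxylases and of EPAS1 were lower than in static cells, by 1.75- to 3.89-fold at 48 and 96 h. HIF1A and ARNT, the partners that form HIF-1, differed by no more than 1.20-fold. HIF1AN was higher in OSS than in static cells at 96 h, when its static level was at its lowest mean. At 96 h all 6 members passed edgeR's quasi-likelihood test at a Benjamini-Hochberg adjusted p under 0.05, with 5 lower and 1 higher in OSS. At this time point 51.6% of all tested genes passed (25.5% higher and 26.2% lower), and the OSS and static libraries did not overlap for any of the 6 members, as for 60.6% of tested genes. At 48 h, 3 members passed, all lower in OSS, against 48% of tested genes in either direction, 23.5% higher and 24.5% lower. The same 3 members did not overlap between OSS 48 h and Static 48 h, as 52.9% of tested genes did not.

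At 12 h, 2 members passed, both lower than in Static 0 h, against 13.1% of tested genes in either direction, 6.45% higher and 6.65% lower. With the replicate number as a block, 3 members and 41.2% of tested genes passed. The share over all genes moved with single libraries, as the 1682 genes called at 12 h became 71 without OSS 12 h replicate 2, 147 without its replicate 1 and 260 without Static 0 h replicate 2. The groups did not overlap for 3 members, and for 36.5% of tested genes. The 2 that passed without the block were EGLN1 and EGLN3, and the plot of fold changes shows each member by time.

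**Figure D1:**
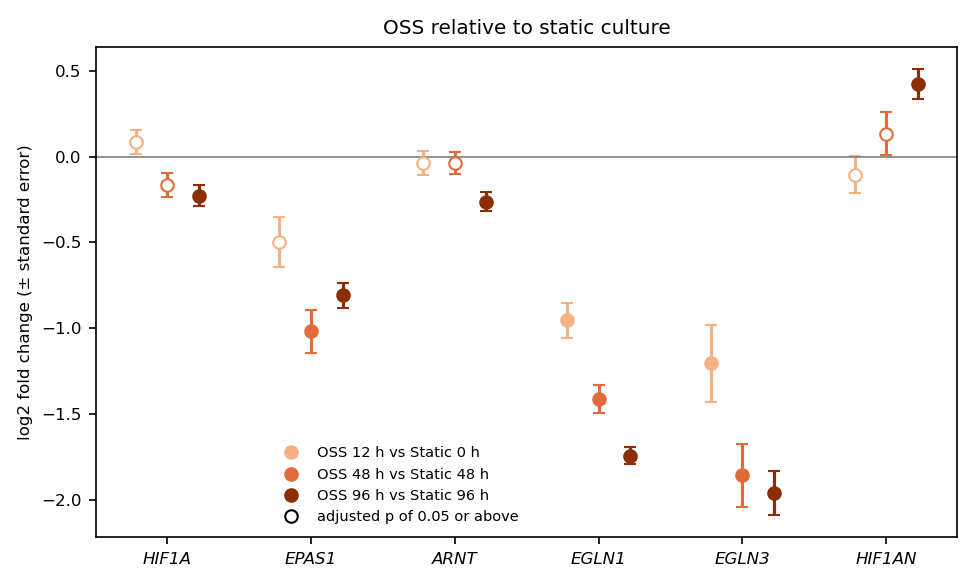
Log2 fold change (± standard error, edgeR) of each member in OSS relative to static culture at 12 h (set against Static 0 h), 48 h and 96 h. Filled points had an adjusted p under 0.05. EGLN1 and EGLN3 lay lowest at each time, between -0.96 and -1.96, while HIF1A, ARNT and HIF1AN stayed between -0.26 and 0.42.

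HIF1A, the alpha subunit found in nearly all cell types, differed little between conditions. It lay at 198, 197 and 203 CPM in replicates 1, 2 and 3 of OSS 12 h, against 199.7, 186 and 189 CPM in Static 0 h (levels here are CPM scaled by TMM, with replicates always in this order). After 48 h it lay at 174, 194 and 196 CPM in OSS and at 194, 211 and 228 CPM in static cells, and after 96 h at 188, 208 and 207 CPM in OSS and at 233, 231 and 241 CPM in static cells. The groups overlapped at 12 and 48 h and separated at 96 h, where every OSS library lay below every static one. The log2 fold change was 0.09 (standard error 0.07, edgeR adjusted p = 0.451) at 12 h, -0.16 (0.07, adjusted p = 0.0646) at 48 h and -0.23 (0.06, adjusted p = 0.0165) at 96 h. The 48 h difference passed with the replicate block (edgeR adjusted p = 0.0349, where 59.6% of tested genes passed) and without Static 48 h replicate 1 (adjusted p = 0.0171). The 96 h difference, 1.17-fold in size, passed in 5 of 6 runs with 1 library left out. It did not pass without Static 96 h replicate 3 (log2 fold change -0.21, adjusted p = 0.0615) or without scaling factors (-0.16, adjusted p = 0.0521).

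EPAS1, the alpha subunit of HIF-2, was the alpha subunit with the larger differences. In OSS 12 h it lay at 72.2, 64.1 and 71.0 CPM, against 88.1, 125 and 85.4 CPM in Static 0 h. The groups did not overlap, and Static 0 h replicate 2 stood well above its partners. The log2 fold change was -0.50 (standard error 0.15) and missed the threshold (edgeR adjusted p = 0.0622), but passed with the replicate block (adjusted p = 0.00742) and in DESeq2 (adjusted p = 0.0108). Without Static 0 h replicate 2 it was -0.31 (edgeR adjusted p = 0.123), and without Static 0 h replicate 3 it was -0.60 and passed (adjusted p = 0.0476).

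At 48 and 96 h EPAS1 was lower in OSS than in static cells in every setting tried. It lay at 68.8, 87.7 and 80.8 CPM in OSS 48 h, against 156, 159 and 167 CPM in Static 48 h. After 96 h the levels were 84.4, 102 and 93.4 CPM in OSS, against 162, 166 and 159.9 CPM in static cells. The highest OSS library thus stayed far below the lowest static one at both times. The OSS 96 h mean of 93.2 CPM lay close to that of Static 0 h (99.5 ± 22.1 CPM, SD). The means of Static 48 h and Static 96 h were 160 and 163 CPM, so the 96 h difference lay beside a raised static mean. The log2 fold change was -1.02 (standard error 0.13, edgeR adjusted p = 1.52e-05) at 48 h, or 2.03-fold lower, and -0.81 (0.07, adjusted p = 0.000188) at 96 h, or 1.75-fold lower.

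ARNT, the beta subunit that pairs with either alpha subunit and is not destroyed in oxygen, was the flattest member, with condition means spanning 0.26 on the log2 scale. Its levels were 129.9, 131 and 134 CPM in OSS 12 h and 135, 144 and 133 CPM in Static 0 h, and 123, 134 and 128 CPM in OSS 48 h and 120.5, 134 and 141 CPM in Static 48 h. The groups overlapped at both times, with log2 fold changes of -0.04 (standard error 0.07, edgeR adjusted p = 0.759) at 12 h and -0.04 (0.07, adjusted p = 0.674) at 48 h. At 96 h ARNT lay at 118, 122 and 116 CPM in OSS, against 137, 149 and 142 CPM in static cells, with no overlap. The log2 fold change of -0.26 (standard error 0.06) passed the test (edgeR adjusted p = 0.00624) and in all 14 alternative settings.

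**Figure D2:**
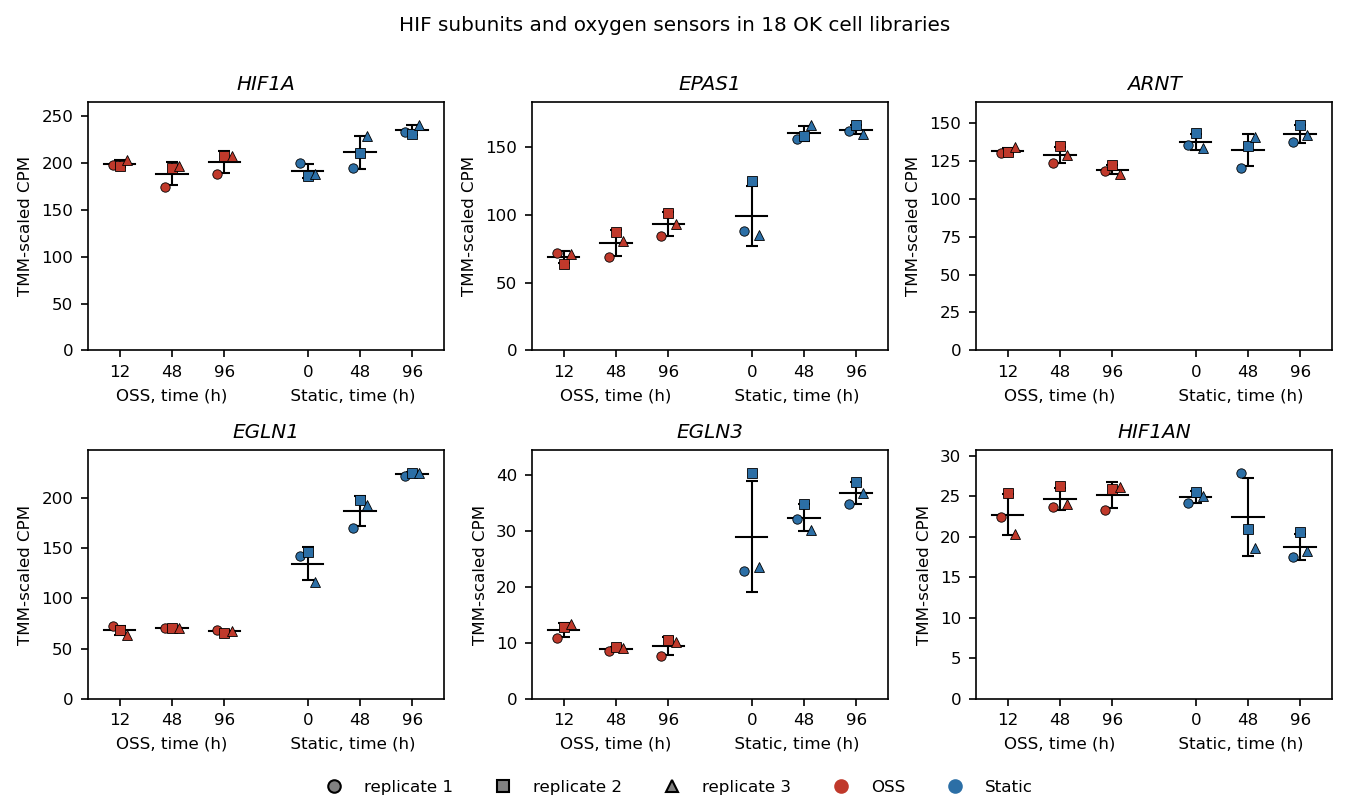
TMM-scaled CPM of the 6 members in each library, OSS 12, 48 and 96 h (red) left of Static 0, 48 and 96 h (blue), with symbols for replicates 1 to 3, black lines for means and bars for the SD of 3 libraries. EGLN1 stayed between 63.6 and 72.3 CPM in all OSS libraries and between 116 and 225 CPM in the static ones.

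EGLN1, which makes PHD2, the main prolyl hydroxylase of HIF-1 alpha in human cells, separated all OSS from all static libraries. Its levels were 72.3, 68.9 and 63.6 CPM in OSS 12 h, against 142, 146 and 116 CPM in Static 0 h. They were 70.0, 70.7 and 70.3 CPM in OSS 48 h, against 171, 198 and 193 CPM in Static 48 h, and 68.7, 65.6 and 67.2 CPM in OSS 96 h, against 223, 225 and 225 CPM in Static 96 h. All OSS libraries lay within a narrow band below all static ones, whereas the static libraries spread upward with time. The log2 fold change was -0.96 (standard error 0.10, edgeR adjusted p = 0.00757) at 12 h, -1.41 (0.08, adjusted p = 4.08e-08) at 48 h and -1.74 (0.05, adjusted p = 7.06e-06) at 96 h. EGLN1 was thus 1.94-, 2.66- and 3.35-fold lower in OSS. EGLN1 passed all 3 comparisons in each of their 14 alternative settings, and its 96 h fold change ranked among the lowest 2.18% of tested genes.

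EGLN3, which makes the inducible prolyl hydroxylase PHD3, showed the largest fold changes of the members in all 3 comparisons. It lay at 10.8, 12.8 and 13.3 CPM in OSS 12 h, against 22.9, 40.4 and 23.5 CPM in Static 0 h. The groups did not overlap, and Static 0 h replicate 2 was again high. At 48 h it lay at 8.55, 9.30 and 8.99 CPM in OSS, against 32.2, 34.9 and 30.2 CPM in static cells. At 96 h it lay at 7.58, 10.6 and 10.2 CPM in OSS, against 34.9, 38.7 and 36.9 CPM in static cells. At 48 h and at 96 h, each static library held at least 3 times the level of each OSS library of the same time. The log2 fold change was -1.21 (standard error 0.22, edgeR adjusted p = 0.0199) at 12 h, -1.86 (0.19, adjusted p = 2.18e-06) at 48 h and -1.96 (0.13, adjusted p = 6.29e-05) at 96 h. The 12 h call was lost without OSS 12 h replicate 1 (-1.13, adjusted p = 0.0715) or replicate 2 (-1.24, adjusted p = 0.0657), and without Static 0 h replicate 2 the change was -0.89 (adjusted p = 0.0317). The calls at 48 and 96 h held in all 14 settings tried for each.

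HIF1AN, the asparagine hydroxylase, had the opposite direction to the prolyl hydroxylases at 96 h. It lay at 22.4, 25.4 and 20.3 CPM in OSS 12 h, against 24.1, 25.5 and 25.0 CPM in Static 0 h, and at 23.7, 26.2 and 24.0 CPM in OSS 48 h, against 27.9, 20.9 and 18.6 CPM in Static 48 h. The groups overlapped at both times, and the log2 fold changes were -0.10 (standard error 0.11, edgeR adjusted p = 0.538) and 0.13 (0.12, adjusted p = 0.396). Static 48 h replicate 1 was the highest library of all for HIF1AN, and without it the 48 h change was 0.32 and passed (adjusted p = 0.0207). At 96 h HIF1AN lay at 23.3, 25.9 and 26.1 CPM in OSS, against 17.4, 20.5 and 18.2 CPM in static cells, with no overlap. It was 0.42 higher in OSS on the log2 scale (standard error 0.09, edgeR adjusted p = 0.00602), a 1.34-fold difference that held in all 14 settings tried. Condition means were 22.7 ± 2.57, 24.6 ± 1.37 and 25.1 ± 1.58 CPM at 12, 48 and 96 h of OSS, and 24.9 ± 0.684, 22.5 ± 4.81 and 18.7 ± 1.61 CPM at 0, 48 and 96 h of static culture (SD, n = 3). The difference at 96 h thus lay beside a low static mean and an OSS mean close to that of Static 0 h, and no step of HIF1AN within either condition passed.

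Within each culture condition few members differed between successive time points. Between 12 and 48 h of OSS only EGLN3 passed, lower at 48 h by a log2 value of -0.46 ± 0.14 (SE, edgeR adjusted p = 0.0356), against 27.1% of tested genes in either direction, 14.3% higher and 12.8% lower. The call held in only 1 of 6 runs with 1 library left out. It remained without OSS 12 h replicate 1 and was lost without any of the other 5 libraries (adjusted p up to 0.108), while the log2 fold change in those runs stayed between -0.49 and -0.40. HIF1A and EGLN3 did not overlap between these times, as 41.1% of tested genes did not, and with the replicate block 42.8% of tested genes passed while EGLN3 was still the only member.

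Between 48 and 96 h of OSS, 0 members passed in edgeR and 0 in DESeq2, and EPAS1 alone had an unadjusted p under 0.05 (log2 fold change 0.23, edgeR adjusted p = 0.250). Few genes moved in this step, 1.14% of those tested (0.678% higher and 0.467% lower), or 19.2% with the replicate block, under which no member passed. These 147 genes became 1 to 15 when 1 library was left out. DESeq2 called 1105 of the 12840 tested genes in this step. ARNT and EGLN1 did not overlap between these times, as 28.1% of tested genes did not. EPAS1 means in OSS were 69.1 ± 4.38, 79.1 ± 9.60 and 93.2 ± 8.71 CPM at 12, 48 and 96 h (SD, n = 3), and neither step passed the test.

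In static culture the calls fell in the first step. EPAS1 lay at 156, 159 and 167 CPM in Static 48 h, against 88.1, 125 and 85.4 CPM in Static 0 h, and rose by 0.67 on the log2 scale (standard error 0.13, edgeR adjusted p = 0.00526). EGLN1 rose by 0.46 (0.09, adjusted p = 0.00700) in the same step. These were the 2 members that passed, against 30.1% of tested genes in either direction, 14.8% higher and 15.3% lower, and the 2 whose groups did not overlap, as for 41.3% of tested genes. EGLN3 had a log2 fold change of 0.15 (adjusted p = 0.599), with Static 0 h replicate 2 above all 3 libraries of Static 48 h. Without that library the change was 0.46 and passed (edgeR adjusted p = 0.0112), and without Static 48 h replicate 1 HIF1AN passed as lower (-0.35, adjusted p = 0.0278).

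Between 48 and 96 h of static culture 0 members passed in edgeR and 0 in DESeq2, and EGLN1 had an unadjusted p under 0.05 (log2 fold change 0.25, edgeR adjusted p = 0.330). Among all tested genes 0.0389% passed, or 0.802% with the replicate block, and DESeq2 called 286 of the 12840 genes. HIF1A and EGLN1 did not overlap between these times, as 21.2% of tested genes did not. A direct test asked whether the change between 48 and 96 h differed between OSS and static culture. In edgeR it called 0 members and 0% of tested genes, or 1.07% of tested genes with the replicate block. In DESeq2 it called 0 members and 225 of the 12840 tested genes. ARNT (-0.22, standard error 0.09, edgeR adjusted p = 0.336) and EGLN1 (-0.33, 0.12, adjusted p = 0.289) had an unadjusted p under 0.05 there, as did 12.3% of tested genes.

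Per kilobase of deposited gene length, the mean levels over the 18 libraries followed the order HIF1A (66.5 CPM per kb), ARNT (55.4), EPAS1 (42.8), EGLN1 (31.8), EGLN3 (12.6) and HIF1AN (4.19). HIF1A stood at percentile 88.9 of all tested genes and HIF1AN at percentile 30.5. Across all libraries each neighbour's range overlapped the next. Within single libraries HIF1A exceeded ARNT, EGLN1 exceeded EGLN3 and EGLN3 exceeded HIF1AN in 18 of 18, EPAS1 exceeded EGLN1 in 17, and ARNT exceeded EPAS1 in 12. The other 6 libraries, where EPAS1 stood above ARNT per kb, were those of Static 48 h and Static 96 h. Without division by length EGLN1 came before EPAS1 and HIF1AN before EGLN3. The OK line is known to derive from the Virginia opossum, while the reads were aligned to the genome of the gray short-tailed opossum, so levels between genes also carry how well each gene's reads aligned, which was not tested.

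The balance of the alpha transcripts followed EPAS1. HIF1A was 2.43 ± 0.14, 2.02 ± 0.14 and 1.82 ± 0.09 times EPAS1 per kb in OSS at 12, 48 and 96 h, and 1.67 ± 0.37, 1.11 ± 0.05 and 1.22 ± 0.05 times in static cells at 0, 48 and 96 h (SD, n = 3). The sum of EGLN1 and EGLN3 was 0.268, 0.252 and 0.223 times the sum of HIF1A and EPAS1 in OSS, and 0.505, 0.509 and 0.562 times in static cells. The highest OSS library had a ratio of these sums of 0.281 and the lowest static library one of 0.458. EGLN1 made up 70.6, 77.3 and 75.6% of the sum of EGLN1 and EGLN3 in OSS and 67.4, 71.4 and 72.5% in static cells. EGLN2 and HIF1AN were outside this sum. These ratios are descriptions and carry no test.

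**Figure D3:**
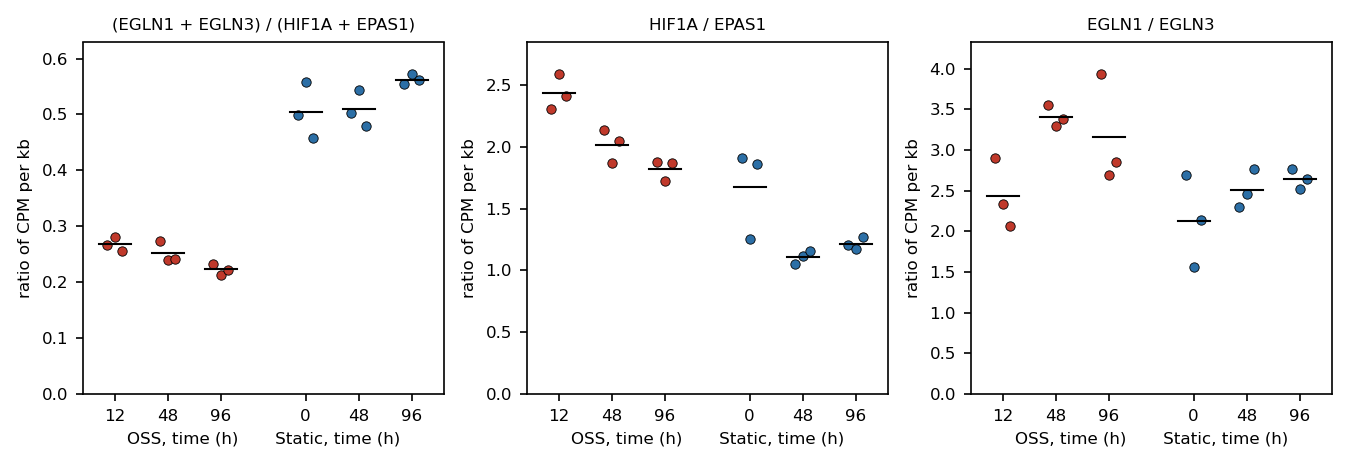
Ratios of CPM per kb in each library, OSS (red) left of static culture (blue). Time is on the horizontal axis and black lines mark condition means. The panels show EGLN1 plus EGLN3 over HIF1A plus EPAS1, HIF1A over EPAS1, and EGLN1 over EGLN3. EGLN1 plus EGLN3 over HIF1A plus EPAS1 lay between 0.213 and 0.281 in OSS and between 0.458 and 0.571 in static culture.

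The other genes of the pathway were read from 5 lists, which were also chosen with earlier results of these data known. Of 50 HIF target genes 48 were tested, and 41 were lower and none higher in OSS 96 h than in Static 96 h. Of all tested genes, 26.2% were lower and 25.5% higher. The target median log2 fold change was -1.53, against -0.002 for all tested genes. At 48 h, 38 targets were lower and none higher, against 24.5% and 23.5% of tested genes, with a median of -1.44 against -0.03. At 12 h 29 were lower and 1 higher, against 6.65% and 6.45%, with a median of -0.76 against -0.004. Leaving out single libraries lowered the 12 h count of 30 to 13 (OSS 12 h replicate 2), 18 (OSS 12 h replicate 1) and 19 (Static 0 h replicate 2). CA9, a carbonic anhydrase with a part in the pH control of hypoxic cells, lay at 0.291 ± 0.22 CPM in OSS 96 h, against 33.6 ± 1.80 CPM in Static 96 h (log2 fold change -6.78, edgeR adjusted p = 3.42e-05). ADM, the vessel-relaxing peptide adrenomedullin, lay at 4.91 ± 0.345 CPM and 197 ± 24.2 CPM in the same groups (-5.33, adjusted p = 5.07e-06), and ERO1A, an oxidase of protein folding, at 55.1 ± 15.0 CPM and 563 ± 34.8 CPM (-3.36, adjusted p = 3.73e-05). At 96 h EGLN1 (-1.74) and EGLN3 (-1.96) lay below the median of the target list, which did not hold them, and HIF1A, ARNT, EPAS1 and HIF1AN above it.

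**Figure D4:**
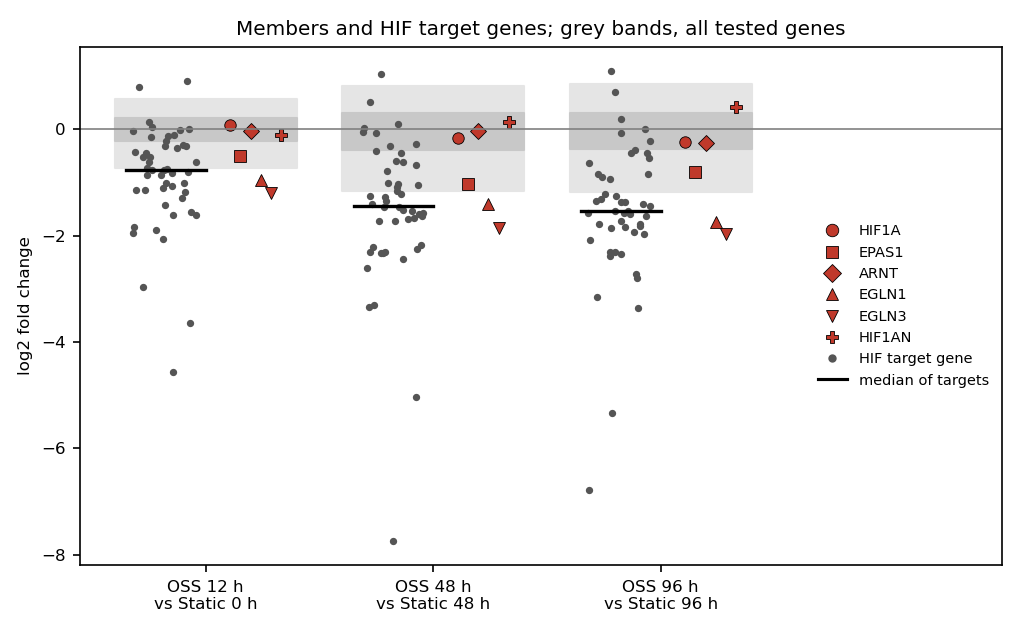
Log2 fold change of OSS relative to static culture for the 6 members (red symbols) and 48 HIF target genes (dots, black line at their median) at 12, 48 and 96 h, with 12 h set against Static 0 h. Grey bands hold the middle 50 and 90% of all tested genes. The target medians were -0.76, -1.44 and -1.53.

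Between 0 and 48 h of static culture, when EPAS1 and EGLN1 rose, 20 of the 48 tested targets rose and 1 fell. Of all tested genes, 14.8% rose and 15.3% fell. The target median was 0.45, against 0.02 for all tested genes, and without Static 0 h replicate 1 the total of 21 was 12. VEGFA, which drives vessel growth, averaged 251 ± 27.9 CPM in Static 48 h, against 87.6 ± 22.6 CPM in Static 0 h (log2 fold change 1.50, edgeR adjusted p = 0.000412). PDGFB, a growth factor for pericytes, rose by 1.43 (adjusted p = 0.00147). Between 12 and 48 h of OSS 8 of the 48 targets rose and 7 fell, near the 27.1% of all tested genes called in this step, with CA9 lowest (-2.64, edgeR adjusted p = 0.00652). Between 48 and 96 h of OSS NDRG1, a stress-induced gene, was the only target called (-0.49, adjusted p = 0.0329). That call was lost without any one of the 6 libraries, and 14 of 48 targets passed with the replicate block, against 19.2% of all tested genes.

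Genes reported to prefer HIF-2 alpha in human or mouse cells did not move one way. Of 12 such genes 7 were tested, and 3 were higher and 3 lower in OSS 96 h than in Static 96 h, where 51.6% of all tested genes passed. SLC11A2, the iron transporter DMT1, lay at 247 ± 64.7 CPM in OSS 96 h, against 659.9 ± 42.0 CPM in Static 96 h (log2 fold change -1.42, edgeR adjusted p = 0.000704). PLIN2, which coats lipid droplets, lay at 125 ± 11.1 CPM and 55.9 ± 5.96 CPM (1.16, adjusted p = 0.000136), and SLC40A1, the iron exporter ferroportin, at 24.9 ± 2.38 CPM and 11.4 ± 2.11 CPM (1.12, adjusted p = 0.000874). At 48 h 3 were higher and 2 lower, where 48% of all tested genes passed. SLC11A2, PLIN2 and SLC40A1 passed in the same directions. At 12 h 3 passed (13.1% of all tested genes), or 6 with the replicate block (41.2% of all tested genes). No more than 2 of the 7 passed in any run with 1 library left out.

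The partners of VHL in its ligase differed by small amounts in both directions. Of 10 listed genes 8 were tested, and 2 were higher and 4 lower in OSS 96 h than in Static 96 h, with changes from -0.40 to 0.44. With 51.6% of all tested genes called at 96 h and 48% at 48 h, these counts are no result about the list. CUL2, the scaffold of the ligase, lay at 94.8 ± 1.42 CPM in OSS 96 h, against 121 ± 2.62 CPM in Static 96 h (log2 fold change -0.36, edgeR adjusted p = 0.000945). USP20, a deubiquitinase known to counter VHL on HIF-1 alpha in human cells, was lower at 96 h (-0.40, adjusted p = 0.000654) and at 48 h (-0.40, adjusted p = 0.00115). NEDD8, the modifier that activates cullins, was higher at 48 h (0.55, adjusted p = 4.06e-06), when 2 partners were higher and 3 lower.

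Genes that act on the stability of HIF alpha or its contact with coactivators included 20 tested of 22. In OSS 96 h 6 were higher and 3 lower than in Static 96 h, and at 48 h 6 were higher and 4 lower. These counts lay near the 51.6% and 48% of all tested genes called at those times and set the list apart in neither. CITED2, which competes with HIF-1 alpha for the coactivators EP300 and CREBBP and is known as a HIF target, lay at 18.1 ± 2.44 CPM in OSS 96 h, against 68.4 ± 7.64 CPM in Static 96 h (log2 fold change -1.92, edgeR adjusted p = 5.50e-05). HSP90AA1, the chaperone that holds unbound HIF-1 alpha, lay at 935 ± 33.6 CPM and 518 ± 19.4 CPM in the same groups (0.85, adjusted p = 6.61e-05). At 12 h 2 were higher and 2 lower, where 13.1% of all tested genes passed, and 7 passed with the replicate block (41.2% of all tested genes). Between 0 and 5 passed when 1 library was left out, with 0 without OSS 12 h replicate 2.

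Relatives of the HIF subunits with the same domain layout were the last list, with 6 of 11 tested. At 96 h 3 were higher and 1 lower in OSS, where 51.6% of all tested genes passed, so the count says little about 6 genes. NPAS2, a clock transcription factor, lay at 28.2 ± 2.96 CPM in OSS 96 h, against 56.7 ± 4.80 CPM in Static 96 h (log2 fold change -1.01, edgeR adjusted p = 0.000233). ARNT2, a second beta subunit best known from nerve cells, lay at 7.96 ± 0.463 CPM and 5.09 ± 0.577 CPM (0.64, adjusted p = 0.0037) and so moved opposite to ARNT. The clock gene ARNTL2 was higher at 96 h (1.03, adjusted p = 0.000821) and at 48 h (0.91, adjusted p = 0.00013). At 12 h 0 passed in edgeR (13.1% of all tested genes) and 0 in DESeq2 (2788 of the 12840 tested genes). Of the 6 relatives, 1 had an unadjusted edgeR p under 0.05, and 3 passed with the replicate block, against 41.2% of all tested genes.

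For the 3 members whose condition means spanned at least 1 on the log2 scale, the genes with the most similar pattern over the 18 libraries were found by the root mean square difference of centred log2 CPM. Nearest to EGLN1 were KANSL1L (0.117), P4HA1 (0.146), which makes a collagen prolyl hydroxylase, and ZNF395 (0.153). Nearest to EGLN3 were MAP4K1 (0.179), P4HA2 (0.187), the sister enzyme of P4HA1, and ZNF395 (0.205). Nearest to EPAS1 were RALGAPA2 (0.134), ANK2 (0.144) and MROH1 (0.146). KANSL1L, for example, averaged 270.0 ± 7.74 CPM in OSS 96 h and 740.1 ± 18.8 CPM in Static 96 h. P4HA1 and P4HA2 also stand in the HIF target list.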

How the data were processed

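RNA of OK cells was sequenced as rRNA-depleted stranded libraries. Per the paper's methods and the submitters' notes, the authors used cutadapt for trimming, TopHat2 for alignment to MonDom5 and featureCounts (Subread) for counting. What they deposited are raw counts per gene, each with a gene length. Tool versions, the strand setting of the counting and the annotation release are not given in the sources used here. It is therefore not known whether reads of a gene and of an overlapping antisense gene were counted apart.

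Groups follow the labelled condition and time. Genes above 1 CPM in at least 6 of 18 libraries entered edgeR 4.0.16 (limma 3.58.1, R 4.3.3; TMM factors, trended qCML dispersion, legacy quasi-likelihood F-test, Benjamini-Hochberg adjustment over 12840 genes, threshold 0.05). OSS against static at 12 and at 96 h was fitted on its own libraries, steps within a condition on the libraries of that condition, and the other comparisons on all 18. Standard errors were taken as the absolute log2 fold change over the root of F. Replicates differed beyond counting error, with a chi-square per gene of at least 25.1.

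Members and gene lists were chosen with earlier results of these data known. Named genes are the members, up to 4 called genes per list and comparison with the largest changes, and the 3 genes most like each member whose condition means span at least 1. Same-numbered libraries deviated together from their group means in every comparison (r of 0.379 to 0.790 across genes). For differently numbered ones r was -0.655 to 0.379, so that the ranges meet in Static 48 h against Static 0 h. Deviations from a mean of 3 libraries cancel out, which by itself lowers these values. Replicate 1 with another number gave only negative r, while replicates 2 and 3 with each other gave 0.077 to 0.379. The values thus set replicate 1 apart more clearly than replicates 2 and 3 from each other. The pairing was read from these values, since the labels give a shared number and no shared origin, and the main fits have no block. Alternatives were DESeq2 1.42.0, no scaling factors, other filters (none, or 5 CPM), the replicate block, the sheet with 1 entry per gene name, a newer robust fit, other libraries in the fit and leaving out each library. Plots were made in matplotlib 3.10.9 (Python 3.11.15).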

Additional observations from a re-analysis of the deposited data

How the results depend on the processing

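Of 708 member fold changes under alternative settings, 688 kept their direction where called and their side of the threshold, 9 no longer passed and 11 newly passed, and 0 called values reversed. When 1 library was left out, the members called ranged from 1 to 3 for OSS 12 h against Static 0 h, 3 to 5 for OSS 48 h against Static 48 h, 5 to 6 for OSS 96 h against Static 96 h, 0 to 1 for OSS 48 h against OSS 12 h, and 2 to 3 for Static 48 h against Static 0 h. It was 0 for both steps between 48 and 96 h and for their difference in all settings. The replicate block changed 2 member calls, EPAS1 at 12 h and HIF1A at 48 h, and no other. It raised the calls among all genes to 5294 in place of 1682 at 12 h, to 5493 in place of 3480 for OSS 48 h against OSS 12 h, to 2466 in place of 147 for OSS 96 h against OSS 48 h, to 103 in place of 5 for Static 96 h against Static 48 h, and to 138 in place of 0 for the difference of these steps. Leaving out 1 library gave 71 to 1695 calls among all genes at 12 h, 2173 to 3107 for OSS 48 h against OSS 12 h (lowest without OSS 48 h replicate 2), 1 to 15 for OSS 96 h against OSS 48 h, 0 to 13 for Static 96 h against Static 48 h and 0 to 24 for the difference of these steps. Without scaling factors, 36.0% in place of 52.8% of calls were higher for OSS 48 h against OSS 12 h, and 37.2% in place of 49.2% for Static 48 h against Static 0 h. The causes of these shifts were not tested. With 3 pooled libraries per condition, the HIF1A difference at 96 h lay close to the threshold, with edgeR adjusted p-values of 0.0279 to 0.0615 when 1 library was left out.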

Other observations

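The HIF targets, taken as the median over 48 genes of each gene's log2 level minus its mean over all libraries, gave a value for every library. It lay between -0.68 and -0.51 in all 9 OSS libraries and between 0.06 and 0.91 in the 9 static ones. In Static 0 h it was 0.34, 0.47 and 0.06 in replicates 1, 2 and 3. Replicate 2, which was high for EPAS1 and EGLN3, was the highest for the targets but the lowest for HIF1A. Replicate 3 was the lowest for the targets, EGLN1 and EPAS1, while EGLN3 was lowest in replicate 1. The target value of the Static 96 h libraries was 0.90, 0.83 and 0.91.

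Static 48 h replicate 1 was the highest library for HIF1AN and the lowest of its group for HIF1A, EPAS1, ARNT and EGLN1. It had a target median of 0.72, against 0.73 and 0.81 in the other libraries of its group. Single targets in this library differed both ways. ERO1A lay at 236 CPM, against 457 and 472 CPM, and ANKRD37 at 6.11 CPM, against 2.09 and 2.37 CPM. CD14, a marker named here after its values were seen, lay there at 74.8 CPM, against 212 and 313 CPM. Static 0 h libraries held 79.3 to 89.2 CPM of CD14. Replicate 1 was also lowest for CD14 in OSS 48 h (71.7 CPM, against 136 and 153 CPM) and OSS 96 h (133 CPM, against 198 and 205 CPM). In Static 96 h it was not (308 CPM, against 298 and 343 CPM). CDH16 lay at 1116 CPM in Static 48 h replicate 1, against 905 and 947 CPM in its group and 376 to 430 CPM in Static 0 h. The cause of these differences was not tested.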
